A study of Dicentrarchus labrax with 23 samples.

Results

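The lysosome genes described here are 62 array probes of European sea bass (*Dicentrarchus labrax*) intestine whose gene names hold a term used for lysosomal enzymes, lysosomal membrane proteins or the V-type proton ATPase, and 46 of them are named for proteins of the lysosome or its pump. They were found by a text pattern (lysosom, cathepsin, V-type proton, hexosaminidase, galactosidase, mannosidase, glucuronidase, sulfatase, granulin, sialidase, tripeptidyl-peptidase 1, thioesterase 1, Niemann and proactivator polypeptide) in the 3652 named genes of the study's table of genes called for AI-MI vs. PI, out of 14147 probes on the array. The genes were thus chosen by the measured AI-MI and PI signals behind those calls. Their differences between PI and the other segments are therefore given as a description without a test. AI vs. MI, the 1 segment comparison not itself used for those calls, is tested. Probes outside the table carry no gene name in the sources used here, so lysosome genes missing from it were not analysed here. No tested gene of the table differed by less than 1.47-fold between AI-MI and PI. Over all probes, the fit used here (limma, adjusted p under 0.05) called probes higher in PI from a 1.12-fold difference upward. Any lysosome gene with a difference under 1.47-fold is therefore absent from the list, whether called or not.

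RNA came from anterior (AI, cut right behind the pyloric caeca), middle (MI) and posterior intestine (PI, a piece with the rectum). The reared, untreated fish had been fasted overnight, and each array held RNA from 1 fish. AI was measured on 8 arrays, MI on 7 and PI on 8, and AI-MI stands for the 15 AI and MI arrays as 1 group. Age, sex and genotype of the fish are not given in the sources used here. Because RNA was taken from whole pieces of gut, more cells of a type and more RNA per cell cannot be told apart.

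Lysosomes are acid compartments in which proteins, glycans and lipids that a cell has taken up or discarded are broken down. The acid is made by the V-type proton ATPase, whose catalytic sector burns ATP on the cytosolic side and whose membrane sector carries protons into the lumen, and the hydrolases inside reach the compartment mainly through mannose-6-phosphate receptors. In fish, absorptive cells of the hind gut are known for taking up intact protein into large vacuoles that are digested by lysosomal enzymes.

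Among the 46 lysosome and pump genes, the granulins are also secreted. Of the other 16 genes, 3 act in lysosome or sulfatase formation elsewhere in the cell. The remaining 13 share a word with the pattern but are named for another place or are of unsure kind. All values are log2 processed signals with the 75th percentile of each array set to 0, so that each probe is compared between arrays and never with another probe. Differences are PI minus AI-MI unless another pair is named, and ± gives the standard error from the fit, over 15 AI-MI and 8 PI arrays. Tests took in probes that Feature Extraction called well above background on 7 or more of the 23 arrays, which 61 of the 62 genes and 12894 probes in all fulfilled. The arrays lay on 3 glass slides, numbered 1 to 3 here, each of which held all segments. Between 82.8% and 93.1% of probes were well above background per array, the 75th percentile lay between 388 and 1183 intensity units, and no probe spot was saturated. Amnionless, which with cubilin forms the receptor for vitamin B12 bound to intrinsic factor at the end of the absorptive gut, was higher in PI by 10.80 on the log2 scale, and cubilin was well above background on all 8 PI but only 4 of 15 AI-MI arrays. Both come from the same table of called genes and are no independent check of the segments.

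Across AI-MI vs. PI, 51 of the 61 tested genes were higher in PI and 10 higher in AI-MI. Of all 3534 tested genes of the table, 1921 were higher in PI and 1613 in AI-MI, with a median difference of 0.63. None of these differed by less than 1.47-fold in either direction. Their median thus mainly reflects the split of directions and is no typical size of a difference. Over all probes tested, 44.1% passed an adjusted p under 0.05 (limma), 22.6% with higher signals in PI and 21.5% in AI-MI. That the 61 genes pass as well is set by their choice and is not counted as a result. The median difference of the 61 genes was 1.13 (PI minus AI-MI, log2), a 2.19-fold higher level, against -0.0056 over all tested probes. These values, and the overlaps that follow, describe genes picked for this contrast. For 33 genes every PI array lay above every AI-MI array, as for 4.34% of all tested probes, and for 2 every AI-MI array lay above every PI array, as for 4.03%. The 46 lysosome and pump genes split 44 to 2, with a median of 1.24. The 15 tested genes with names for another place or of unsure kind split 7 to 8, with a median of -0.77. This grouping went by gene name, with earlier results of these data known, so setting both splits side by side is no test. The smallest differences among the genes were 0.62 for beta-hexosaminidase subunit beta and palmitoyl-protein thioesterase 1 and -0.75 for arylsulfatase G. The table, with no tested gene under 1.47-fold, sets a floor to these values. Neither they nor the splits cover lysosome genes with smaller differences.

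**Figure D1:**
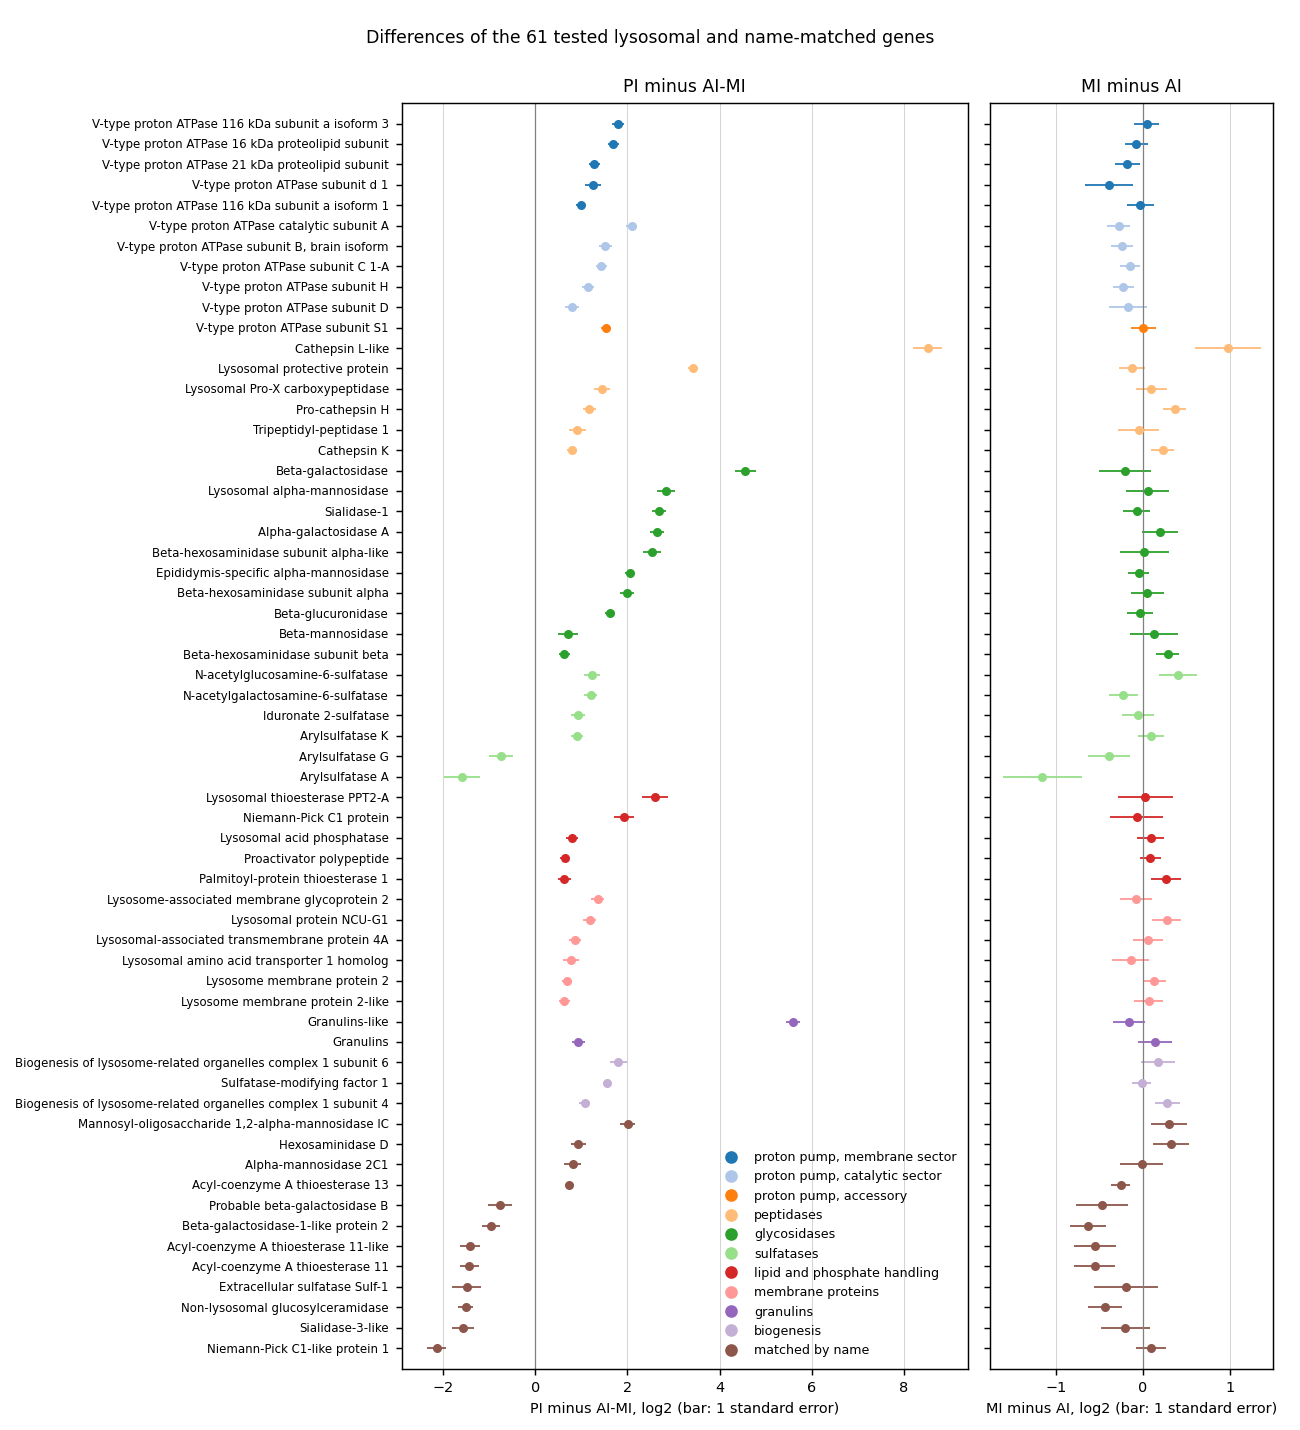
The left panel plots the difference PI minus AI-MI and the right panel MI minus AI (log2, with 1 standard error) of the 61 tested genes, ordered and coloured by role. In the left panel 51 points lie to the right of 0, up to 8.52 for cathepsin L-like, while in the right panel most points lie near 0.

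The proton pump was represented by 11 subunits, and all 11 had higher signals in PI, by 0.79 to 2.09 on the log2 scale with a median of 1.43. In 10 of them every PI array lay above every AI-MI array, as for 4.34% of all tested probes, among genes picked for this contrast. The ranges of AI and MI overlapped in all 11.

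The catalytic sector, which splits ATP, had a median difference of 1.43. Catalytic subunit A, which binds the ATP, ran from 0.27 to 1.14 (median 0.57) in AI, from 0.06 to 0.58 (median 0.37) in MI and from 2.26 to 3.07 (median 2.58) in PI. All 8 PI arrays lay above the other 15, and the difference was 2.09 ± 0.13 (4.26-fold). Subunit B of the brain isoform, its partner in the ring, had a difference of 1.52 ± 0.14, with signals from 3.68 to 4.38 (median 4.03) in AI, from 3.53 to 4.10 (median 3.70) in MI and from 4.67 to 5.93 (median 5.4) in PI. Subunit C 1-A, a part of the outer stalk that lets go when the pump is taken apart, ranged from 0.61 to 1.22 (median 0.84) in AI, from 0.63 to 0.93 (median 0.75) in MI and from 1.75 to 2.61 (median 2.37) in PI, and differed by 1.43 ± 0.11. None of these 3 subunits had overlapping groups. Subunit H, which regulates the assembled pump, ran from 1.96 to 2.68 (median 2.23) in AI, from 1.70 to 2.20 (median 2.03) in MI and from 2.71 to 3.89 (median 3.20) in PI. It was higher in PI by 1.13 ± 0.13 without overlap, and by 0.72 within slide 1. Subunit D of the central rotor had the smallest step of the pump, 0.79 ± 0.16. It ranged from 3.59 to 5.08 (median 4.34) in AI, from 3.86 to 4.64 (median 4.16) in MI and from 4.72 to 5.30 (median 5.10) in PI, and its AI range overlapped with PI while its MI range did not. Its difference was 1.26 within slide 1 and 0.28 within slide 3.

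The membrane sector had a median difference of 1.28. The a3 isoform of the large subunit (116 kDa subunit a isoform 3), which in mammals is the form of late endosomes, lysosomes and osteoclasts, ran from -1.52 to -0.91 (median -1.13) in AI, from -1.58 to -0.65 (median -1.12) in MI and from 0.17 to 1.07 (median 0.72) in PI. It was 3.46-fold higher in PI (log2 difference 1.79 ± 0.13). The a1 isoform, which in mammals is the form of neurons and secretory vesicles, ranged from 1.27 to 1.97 (median 1.56) in AI, from 1.24 to 2.16 (median 1.40) in MI and from 2.26 to 2.90 (median 2.50) in PI, and differed by 0.99 ± 0.12. Both a isoforms had PI arrays that all lay above AI-MI.

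The 16 kDa proteolipid, the repeated subunit of the proton-carrying ring, had signals from 4.54 to 5.23 (median 4.96) in AI, from 4.58 to 5.14 (median 4.90) in MI and from 5.90 to 6.95 (median 6.67) in PI, a difference of 1.69 ± 0.12. The 21 kDa proteolipid of the same ring ranged from -0.47 to 0.30 (median -0.20) in AI, from -0.55 to -0.13 (median -0.26) in MI and from 0.50 to 1.43 (median 1.06) in PI, and differed by 1.28 ± 0.13. In both, the lowest PI array stood above the highest AI-MI array. Subunit d 1, which couples the ring to the rotor, ran from 3.70 to 4.44 (median 4.11) in AI, from 3.32 to 3.97 (median 3.79) in MI and from 4.85 to 5.60 (median 5.21) in PI. It was higher in PI by 1.26 ± 0.17 without overlap, but its spots had been marked as uneven or outlying on 8 of the 23 arrays and the fit left them out, so that this value rests on 4 AI, 3 MI and 8 PI arrays. The authors' own value table, which kept all spots, gave 1.27. The accessory subunit S1, which guides the pump to its place, ran from 1.84 to 2.56 (median 2.31) in AI, from 1.93 to 2.70 (median 2.22) in MI and from 3.51 to 4.09 (median 3.86) in PI, a difference of 1.54 ± 0.11.

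**Figure D2:**
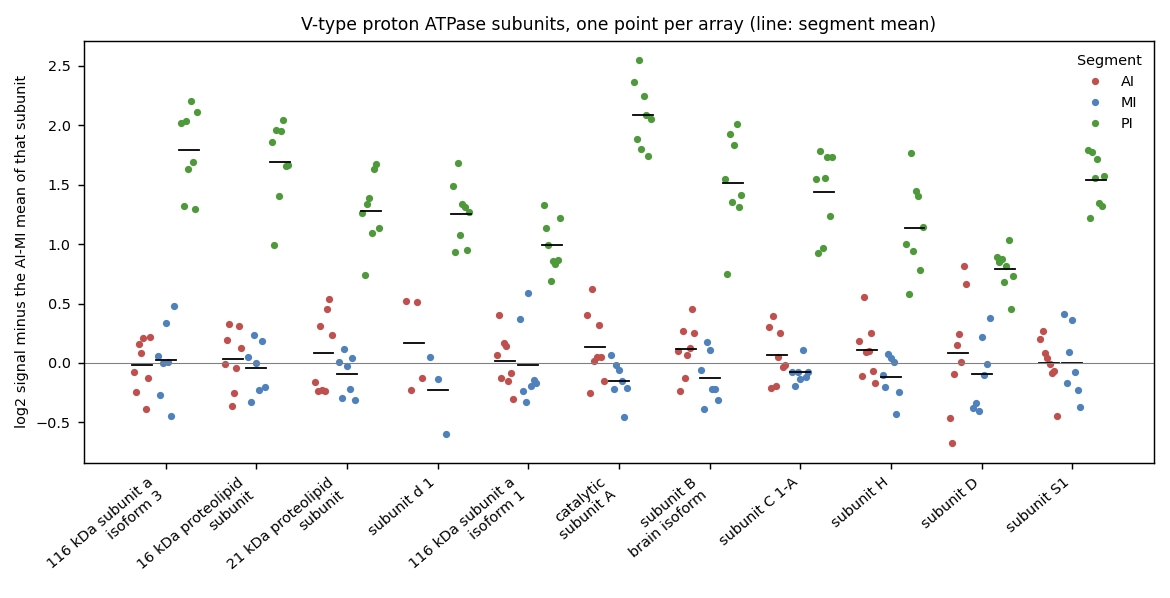
Each point is 1 array and each line a segment mean, plotted as the log2 signal minus the AI-MI mean of that subunit, for the 11 subunits of the V-type proton ATPase on the x axis. PI arrays lie above all AI and MI arrays in every subunit but D, and subunit d 1 has 4 AI and 3 MI points.

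Averaged over the 10 subunits with a value on every array, and taken from each subunit's AI-MI mean, PI arrays lay between 1.04 and 1.70 (median 1.52), AI arrays between -0.11 and 0.25 and MI arrays between -0.26 and 0.14. PI replicate 2 gave the lowest of these PI values and was the lowest PI array for 6 of the 10 subunits. The pump's median difference was 1.21, 1.49 and 1.63 within the 3 slides.

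All 6 lysosomal peptidases had higher signals in PI, with a median difference of 1.31. Cathepsin L-like, a cysteine protease that cuts proteins inside the lysosome, had the largest difference of all 61 genes. Its signals ran from -8.95 to -6.84 (median -8.05) in AI, from -7.79 to -5.73 (median -7.14) in MI and from 0.48 to 1.5 (median 1.12) in PI. Not 1 of the 8 AI arrays and 2 of the 7 MI arrays were well above background, against all 8 of PI. With AI values raised to the lowest signal of any probe called well above background on each array, PI was 253-fold higher than AI. That floor is a lenient one, so this value is no strict lower limit. The measured difference from AI-MI of 8.52 ± 0.32 rests on dim AI-MI values, and it was 4.37 with a normexp background correction, an alternative way to subtract background that adds an offset of 50.

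The lysosomal protective protein (cathepsin A) is a carboxypeptidase that in mammals also holds beta-galactosidase and sialidase-1 in a stable complex. It ran from 2.37 to 3.45 (median 2.95) in AI, from 2.55 to 3.19 (median 2.81) in MI and from 6.08 to 6.59 (median 6.37) in PI, a gap of 3.43 ± 0.12 or 10.7-fold. Lysosomal Pro-X carboxypeptidase, which removes residues behind a proline, ran from -0.06 to 0.87 (median 0.23) in AI, from -0.27 to 0.86 (median 0.24) in MI and from 0.85 to 2.42 (median 1.81) in PI, and differed by 1.45 ± 0.17. The lowest PI array of the latter just overlapped with AI-MI, while those of the protective protein stood clear of it.

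Pro-cathepsin H, an aminopeptidase of the cysteine protease family to which cathepsin L belongs, ranged from 3.72 to 4.57 (median 4.38) in AI, from 4.44 to 5.04 (median 4.68) in MI and from 5.01 to 6.13 (median 5.80) in PI. Its MI arrays lay mostly above AI, and the step to PI was 1.17 ± 0.15, or 0.73 within slide 3. Tripeptidyl-peptidase 1, which trims 3 residues at a time from protein ends, differed by 0.91 ± 0.19 (0.41 within slide 3) with overlapping groups. Cathepsin K, in mammals best known from bone resorption, differed by 0.80 ± 0.11, and 7 of its 8 PI arrays exceeded the highest AI-MI array.

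The lysosomal glycosidases, which strip sugars from glycoproteins and glycolipids, were all 10 higher in PI, with a median difference of 2.29. In 8 of the 10, genes picked for this contrast, every PI array lay above every AI-MI array, as for 4.34% of all tested probes. Beta-galactosidase, which removes terminal galactose, ran from 0.15 to 1.75 (median 1.01) in AI, from 0.12 to 1.35 (median 0.93) in MI and from 4.74 to 5.88 (median 5.49) in PI. Its difference was 4.56 ± 0.23 (23.5-fold). Lysosomal alpha-mannosidase, which trims mannose from N-glycans, ranged from 0.64 to 2.45 (median 1.99) in AI, from 1.5 to 2.46 (median 1.88) in MI and from 4.26 to 5.29 (median 4.57) in PI, a difference of 2.84 ± 0.19. PI arrays of both enzymes lay more than 1 log2 unit above every AI-MI array.

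Sialidase-1, which removes terminal sialic acid, ran from -0.59 to 0.23 (median -0.16) in AI, from -0.55 to 0.35 (median -0.33) in MI and from 1.81 to 2.93 (median 2.54) in PI and differed by 2.68 ± 0.14. The genes of the 3 proteins of the mammalian complex, protective protein, beta-galactosidase and sialidase-1, were all higher in PI without overlap. The same held for 4.34% of all tested probes, and all 3 genes were picked for this contrast. Alpha-galactosidase A, which takes galactose from globo-series lipids, differed by 2.65 ± 0.16, and the second mannosidase, named epididymis-specific alpha-mannosidase, by 2.04 ± 0.10. Beta-glucuronidase, which acts on glycosaminoglycans, differed by 1.61 ± 0.11.

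The subunits of beta-hexosaminidase, which cuts N-acetylhexosamines from glycolipids such as GM2, had unequal differences. The alpha subunit was higher by 1.99 ± 0.16 and an alpha-like probe by 2.53 ± 0.20, both without overlap, while the beta subunit, with signals from 6.36 to 7.0 (median 6.78) in AI, from 6.64 to 7.26 (median 7.0) in MI and from 7.08 to 7.83 (median 7.50) in PI, differed by 0.62 ± 0.12. Whether probes of such closely named genes pick up each other's transcripts was not tested. The beta subunit's value was 1.03 with quantile normalization, and the alpha-like value 1.5 with normexp. Beta-mannosidase differed by 0.71 ± 0.22 with overlapping groups, and its value was 0.16 with normexp and 0.36 to 1.08 within slides.

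Sulfatases, which remove sulfate from glycosaminoglycans and sulfolipids, did not all go one way: 4 were higher in PI and 2 in AI-MI. N-acetylglucosamine-6-sulfatase, an enzyme of heparan and keratan sulfate breakdown, ran from -3.04 to -1.40 (median -2.60) in AI, from -2.55 to -1.67 (median -2.14) in MI and from -1.41 to -0.69 (median -1.02) in PI. Its difference was 1.23 ± 0.18, and 7 of 8 PI arrays exceeded the highest AI-MI array. N-acetylgalactosamine-6-sulfatase, which works on keratan and chondroitin sulfate, ranged from -3.99 to -3.14 (median -3.40) in AI, from -4.20 to -3.18 (median -3.75) in MI and from -2.67 to -2.04 (median -2.45) in PI and differed by 1.20 ± 0.14 without overlap. Iduronate 2-sulfatase (difference 0.93 ± 0.16) and arylsulfatase K (0.91 ± 0.13), both of which remove sulfate from uronic acids, were also higher in PI. The normexp values were 0.57 for N-acetylgalactosamine-6-sulfatase and 0.48 for iduronate 2-sulfatase, whose value was 0.56 within slide 3.

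Arylsulfatase A, which cleaves sulfatide, had the opposite profile, highest in AI. Its signals ran from 2.15 to 4.72 (median 3.55) in AI, from 1.47 to 4.6 (median 1.97) in MI and from 0.63 to 2.22 (median 1.53) in PI, and 10 of the 15 AI-MI arrays exceeded the highest PI array. The difference was -1.60 ± 0.39 (PI minus AI-MI), or -1.03 within slide 1. MI replicate 7, at 4.6, lay far above the MI median, and AI replicate 2, at 2.15, was the lowest AI array. Arylsulfatase G, a further enzyme of heparan sulfate breakdown, ran from -6.81 to -5.48 (median -5.84) in AI, from -7.11 to -5.78 (median -6.38) in MI and from -8.66 to -6.25 (median -6.74) in PI and differed by -0.75 ± 0.26. It was dim, well above background on 10 of 15 AI-MI and 4 of 8 PI arrays, and its value was -0.33 with normexp and -0.49 within slide 1.

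Among the lipid and phosphate group all 5 genes were higher in PI, with a median of 0.80. The thioesterase PPT2-A, which removes lipid chains from thioesters, ran from -5.39 to -3.83 (median -4.47) in AI, from -5.57 to -3.04 (median -4.67) in MI and from -3.33 to -1.13 (median -1.60) in PI and differed by 2.59 ± 0.28. One PI array reached into the AI-MI range. The Niemann-Pick C1 protein, which moves cholesterol out of the lysosome, ranged from -6.95 to -5.50 (median -6.46) in AI, from -7.57 to -5.61 (median -6.13) in MI and from -4.79 to -3.83 (median -4.34) in PI, without overlap and with a difference of 1.93 ± 0.22. Its probe was dim in AI-MI, well above background on 10 of 15 arrays. With normexp the differences of both were 1.21 and 0.30.

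Lysosomal acid phosphatase, which frees phosphate from many substrates, ran from -1.35 to -0.39 (median -0.71) in AI, from -0.95 to -0.51 (median -0.68) in MI and from -0.43 to 0.45 (median 0.11) in PI, a difference of 0.80 ± 0.13. The step was 0.52 within slide 1. The proactivator polypeptide (prosaposin), from which the saposins that present lipids to the hydrolases are cut, differed by 0.64 ± 0.10 (1.05 with quantile normalization) with no overlap. Palmitoyl-protein thioesterase 1, which removes palmitate from proteins, ran from 2.62 to 3.62 (median 3.16) in AI, from 2.94 to 3.92 (median 3.43) in MI and from 3.5 to 4.28 (median 3.89) in PI and had one of the smallest differences, 0.62 ± 0.14, with 4 of 8 PI arrays above all AI-MI arrays.

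The 6 lysosomal membrane proteins were higher in PI by 0.63 to 1.36, with a median of 0.81. Lysosome-associated membrane glycoprotein 2 (LAMP-2), a main component of the limiting membrane, ran from -0.25 to 1.07 (median 0.14) in AI, from -0.19 to 0.51 (median 0.19) in MI and from 1.20 to 1.84 (median 1.60) in PI, a difference of 1.36 ± 0.14. The glycosylated membrane protein NCU-G1 ranged from -0.72 to 0.52 (median -0.52) in AI, from -0.35 to 0.20 (median -0.09) in MI and from 0.53 to 1.21 (median 0.91) in PI and differed by 1.18 ± 0.14. In both, PI arrays lay above all others.

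Lysosomal-associated transmembrane protein 4A ran from 0.80 to 1.89 (median 1.44) in AI, from 1.12 to 1.70 (median 1.47) in MI and from 1.80 to 2.74 (median 2.26) in PI, with 7 of 8 PI arrays above AI-MI and a difference of 0.86 ± 0.14. Smaller differences with overlapping groups were found for the exporter of basic amino acids (lysosomal amino acid transporter 1 homolog, 0.77 ± 0.18), for lysosome membrane protein 2 (0.68 ± 0.11, or 0.45 with normexp), which in mammals carries glucosylceramidase to the lysosome, and for its like-named copy (0.63 ± 0.13).

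Granulins are cysteine-rich peptides cut from a precursor that is both secreted and sent to the lysosome. The granulins-like probe ran from 1.72 to 2.44 (median 2.09) in AI, from 1.33 to 2.58 (median 2.01) in MI and from 7.14 to 8.08 (median 7.63) in PI, the second largest difference of the list at 5.59 ± 0.15 (48.1-fold). The probe named granulins ranged from -3.92 to -2.80 (median -3.04) in AI, from -3.49 to -2.63 (median -3.14) in MI and from -2.44 to -1.95 (median -2.21) in PI and differed by 0.94 ± 0.14, or 0.48 with normexp. In both, all PI arrays stood above AI-MI.

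Of the genes for lysosome formation, all 3 were higher in PI without overlap, as for 4.34% of all tested probes, and all were picked for this contrast. Subunit 6 of the biogenesis of lysosome-related organelles complex 1, which sorts cargo toward such organelles, ran from -0.83 to 0.03 (median -0.48) in AI, from -1.07 to 0.07 (median 0.02) in MI and from 0.69 to 1.97 (median 1.56) in PI, a difference of 1.80 ± 0.18. Its subunit 4 ranged from -1.38 to -0.45 (median -0.95) in AI, from -1.06 to -0.46 (median -0.65) in MI and from -0.24 to 0.50 (median 0.28) in PI and differed by 1.07 ± 0.12. Sulfatase-modifying factor 1, the enzyme of the endoplasmic reticulum that activates all sulfatases, ran from 1.1 to 1.85 (median 1.56) in AI, from 1.36 to 1.82 (median 1.52) in MI and from 2.75 to 3.35 (median 3.07) in PI and differed by 1.55 ± 0.09.

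**Figure D3:**
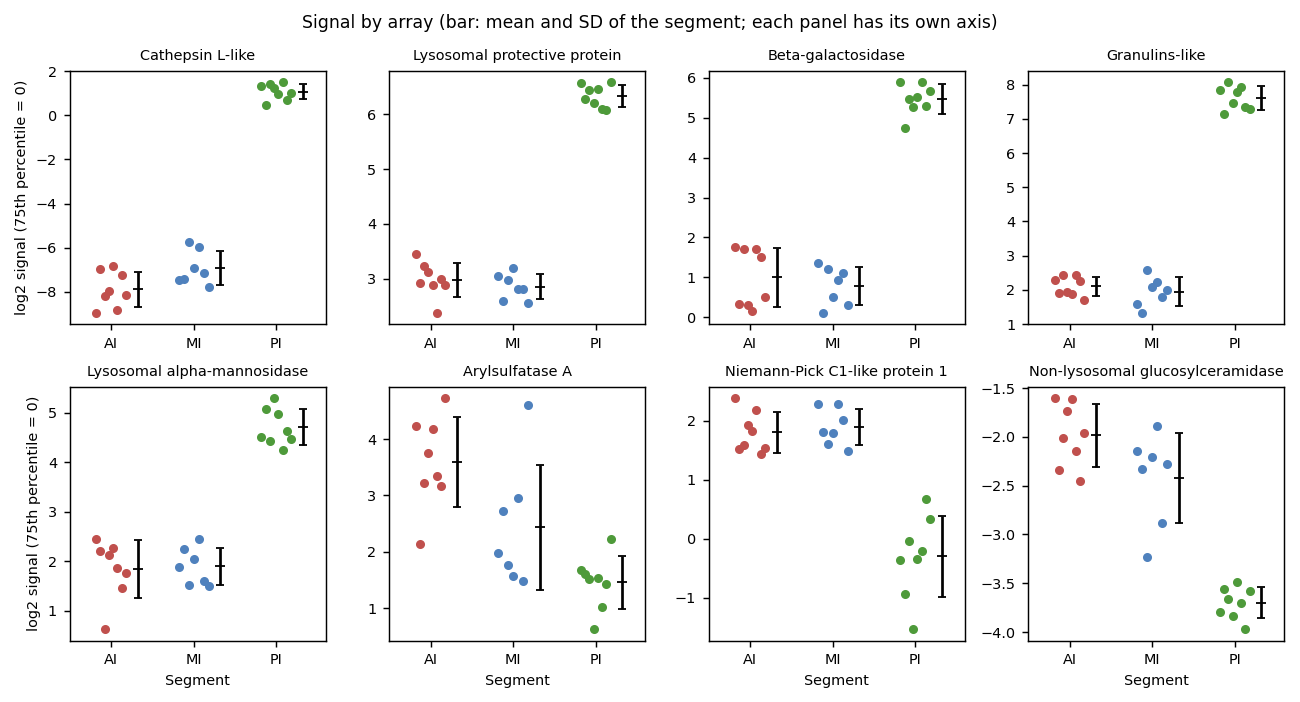
Log2 signals (75th percentile of the array = 0) of 8 genes by segment, 1 point per array, with the segment mean and SD as a bar and an axis of its own for each panel. Cathepsin L-like, lysosomal protective protein, beta-galactosidase, granulins-like and lysosomal alpha-mannosidase have all PI arrays on top, while arylsulfatase A, Niemann-Pick C1-like protein 1 and non-lysosomal glucosylceramidase are lower in PI.

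The genes matched by a word but named for another place or of unsure kind were mixed: of the 12 tested, 8 had higher signals in AI-MI and 4 in PI. The Niemann-Pick C1-like protein 1, the cholesterol importer of the brush border, ran from 1.44 to 2.38 (median 1.71) in AI, from 1.5 to 2.28 (median 1.82) in MI and from -1.53 to 0.67 (median -0.27) in PI. Every AI-MI array lay above every PI array, and the difference was -2.15 ± 0.20 (-1.36 within slide 3). Non-lysosomal glucosylceramidase, which cuts glucosylceramide outside the lysosome, ranged from -2.45 to -1.61 (median -1.99) in AI, from -3.23 to -1.89 (median -2.28) in MI and from -3.97 to -3.49 (median -3.69) in PI, again without overlap, and differed by -1.51 ± 0.16, or -1.0 with normexp. The gene of the lysosomal counterpart, glucosylceramidase, was higher in PI by 1.23.

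Sialidase-3-like ran from -7.16 to -5.27 (median -6.23) in AI, from -6.95 to -5.74 (median -6.24) in MI and from -8.54 to -7.09 (median -7.86) in PI, and 14 of 15 AI-MI arrays exceeded the highest PI array (difference -1.57 ± 0.24, or -0.43 with normexp). Extracellular sulfatase Sulf-1, which edits heparan sulfate at the cell surface, ranged from -8.19 to -5.61 (median -6.63) in AI, from -8.27 to -6.15 (median -6.64) in MI and from -9.20 to -7.02 (median -8.50) in PI and differed by -1.49 ± 0.32. Both probes were well above background on only 2 of 8 PI arrays, and the Sulf-1 value was -0.40 with normexp and -2.43 and -0.99 within slides 2 and 3.

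The acyl-coenzyme A thioesterases, which free fatty acids from coenzyme A in the cytosol or mitochondria, were matched by the term thioesterase 1, through the first digit of their numbers. Acyl-coenzyme A thioesterase 11 ran from -0.86 to 0.58 (median -0.15) in AI, from -1.21 to -0.01 (median -0.70) in MI and from -2.32 to -1.1 (median -1.72) in PI, a difference of -1.44 ± 0.21. Its like-named copy ranged from -0.14 to 1.40 (median 0.58) in AI, from -0.48 to 0.82 (median 0.12) in MI and from -1.62 to -0.17 (median -0.98) in PI and differed by -1.42 ± 0.22. In both, 13 of 15 AI-MI arrays exceeded the highest PI array, whereas acyl-coenzyme A thioesterase 13 was higher in PI by 0.74 ± 0.10.

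Beta-galactosidase-1-like protein 2 ran from 1.01 to 2.28 (median 1.58) in AI, from 0.54 to 1.5 (median 0.99) in MI and from -0.08 to 0.64 (median 0.40) in PI and differed by -0.97 ± 0.19, opposite to beta-galactosidase. The gene named probable beta-galactosidase B ranged from -6.37 to -4.80 (median -5.88) in AI, from -7.14 to -5.20 (median -6.27) in MI and from -8.06 to -6.18 (median -6.69) in PI, a difference of -0.77 ± 0.27 (-0.38 with normexp), from a dim probe that was well above background on 12 of 15 AI-MI and 5 of 8 PI arrays. Beta-N-acetylhexosaminidase, the probe that was not tested, ran from -8.21 to -4.02 (median -7.14) in AI, from -8.68 to -7.02 (median -7.60) in MI and from -9.27 to -7.46 (median -8.48) in PI and was well above background on 1 AI and 1 PI array, so its order has no weight. On the PI side, the Golgi enzyme mannosyl-oligosaccharide 1,2-alpha-mannosidase IC ran from -3.57 to -2.47 (median -3.18) in AI, from -3.30 to -1.89 (median -2.83) in MI and from -1.27 to -0.63 (median -0.97) in PI and was higher by 2.0 ± 0.17. Hexosaminidase D and alpha-mannosidase 2C1, both cytosolic in mammals, were higher in PI by 0.93 ± 0.17 and 0.81 ± 0.18 (the latter 0.48 with normexp).

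AI and MI were each compared with PI as well, on shared PI arrays. Of the 61 genes, 51 were higher in PI than in AI and the same number higher than in MI, with a median difference of 1.09 from AI and 1.01 from MI. Both comparisons reuse the arrays behind the choice of genes, so no test is given. With AI set to 0 and PI to 1, the MI mean of the 51 genes higher in PI had a median place of 0.0067. The quartiles were -0.052 and 0.117, and the median over the 2912 probes called higher in PI was 0.125. Those probes include differences from AI-MI down to 0.17 on the log2 scale, while the 51 genes start at 0.62, so these sets are not alike. For the 10 genes higher in AI-MI the median place was 0.328, and no value over all probes called higher in AI-MI was set beside it.

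Between AI and MI, a comparison not itself used to pick the genes, no gene of the list passed (limma, Benjamini-Hochberg over 12894 probes, two-sided), and the lowest adjusted p was 0.24. Over all probes the share was 0%. The study had already reported AI and MI as close by principal component analysis, with no gene called between them, and had pooled them. A wide AI vs. MI gap also makes a gene harder to call for AI-MI vs. PI, so the list is not fully free of this comparison. At an unadjusted p under 0.05 there were 8 of 61 genes, 6 higher in AI and 2 in MI, against 12.7% of all probes, and the methods' t-test gave 0 genes after adjustment and 9 before it. The median of MI minus AI was -0.03 for the 61 genes and -0.02 over all probes. Leaving out AI replicate 2 took the probes called from 0 to 588 and leaving out MI replicate 7 took them to 40, and in neither case was a gene of the list among them.

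The 5 genes with the smallest unadjusted p were beta-galactosidase-1-like protein 2, pro-cathepsin H, cathepsin L-like, arylsulfatase A and acyl-coenzyme A thioesterase 11. MI minus AI was -0.63 ± 0.21 for beta-galactosidase-1-like protein 2 (limma, adjusted p = 0.24) and 0.37 ± 0.13 for pro-cathepsin H (adjusted p = 0.27). Cathepsin L-like was higher in MI by 0.98 ± 0.38 (limma, adjusted p = 0.30), between signals that were mostly at background, and this value was 0.21 with normexp. Arylsulfatase A had the largest AI vs. MI difference, -1.16 ± 0.46 (limma, adjusted p = 0.31), and acyl-coenzyme A thioesterase 11 was at -0.56 ± 0.23 (adjusted p = 0.33). The ranges of AI and MI given above overlapped in each of these 5 genes.

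Of the 11 pump subunits, 9 had lower means in MI than in AI. The widest of these gaps, 0.40 on the log2 scale, was that of subunit d 1, which rests on 4 AI and 3 MI arrays. None of the 11 had an unadjusted p under 0.05. Catalytic subunit A was nearest to it, with MI minus AI of -0.28 ± 0.14 (limma, adjusted p = 0.41). Beta-galactosidase (-0.21 ± 0.30), lysosomal protective protein (-0.13 ± 0.15) and granulins-like (-0.16 ± 0.18), with far wider steps at PI, also differed little between AI and MI, and did not pass the test.

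Markers of other cells that a piece of gut holds also differed between segments. They too were taken from the table of called genes, and are given as the mean over the list of the log2 signal minus each gene's AI-MI mean. The 4 B cell markers (CD79b, the B cell receptor alpha chain-like gene, CD22 and B cell linker) were all higher in PI, with arrays from 1.17 to 3.40 against -1.13 to 0.52 in AI and -0.47 to 1.98 in MI. The 4 T cell markers (CD3 gamma/delta, CD3 epsilon, CD4 and CD28) were all higher in PI as well, from 0.97 to 2.14 against -0.94 to 0.49 in AI and -0.29 to 1.62 in MI. Of the 5 phagocyte markers, 3 were higher in PI and 2 lower, and their mean ran from -0.28 to 0.45 in PI against -0.41 to 0.25 in AI and -0.26 to 0.31 in MI. These 5 were a selection, and their mean depends on it. Cytochrome b-245 light chain, listed by the study as higher in PI, and the myeloperoxidases it names for PI were not included. None of the 13 markers was dark throughout: the macrophage mannose receptor 1-like was the dimmest, well above background on 9 of 15 AI-MI and 2 of 8 PI arrays. Villin-1, a protein of the brush border, was lower in PI by 0.81. Amnionless and cubilin, the receptor from the end of the absorptive gut described above, went the other way. Amnionless was higher in PI by 10.80. Cubilin was also higher in PI, and was well above background on all 8 PI but only 4 of 15 AI-MI arrays. The part of these cells in the lysosome values was not tested.

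**Figure D4:**
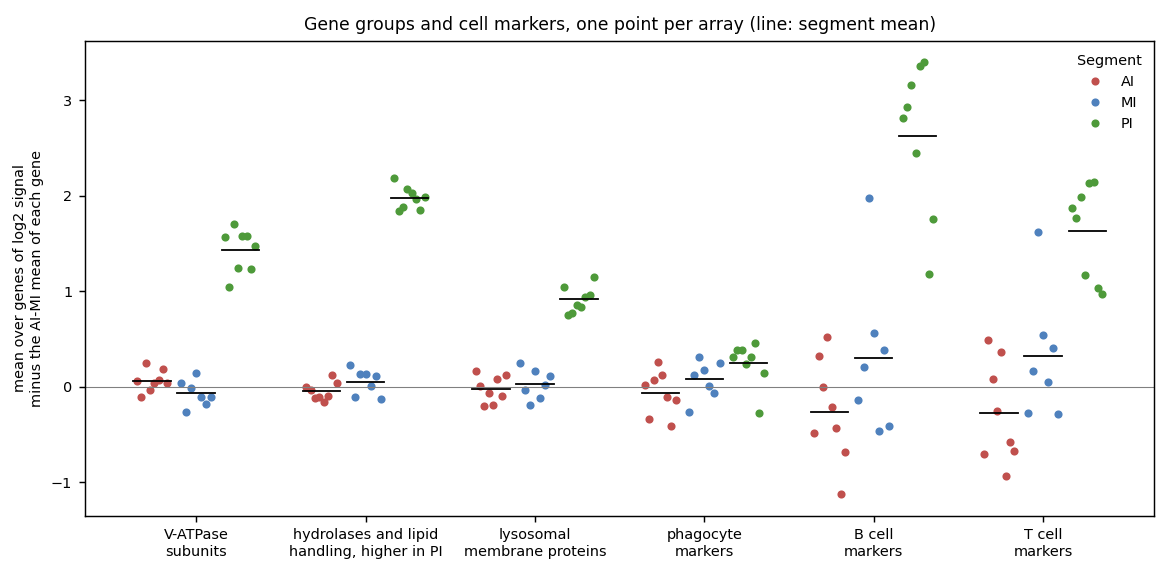
Each point is 1 array, plotted as the mean over the genes of a group of the log2 signal minus each gene's AI-MI mean, and lines are segment means. PI arrays lie from 1.04 to 1.70 for the pump and from 1.84 to 2.19 for the hydrolases and lipid-handling genes picked as higher in PI. B and T cell markers, averaged over fewer genes, are higher in PI with more spread, and the phagocyte markers chosen overlap between segments.

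On the same scale, the 25 hydrolases and lipid-handling genes higher in PI had a mean of 1.97 ± 0.12 (SD over the 8 arrays) in PI, where the B cell markers had 2.63 ± 0.80 and the T cell markers 1.63 ± 0.50. The lowest PI array of the 25 genes stood at 1.84 and the highest AI-MI array at 0.22. They were picked for being higher in PI, without arylsulfatase A and G, so this gap is set by the choice. A mean over 25 genes varies less by itself than a mean over 4 markers, so these SDs cannot be compared. Lysosomal membrane proteins, with 0.75 to 1.15 in PI, were likewise above AI (-0.20 to 0.16) and MI (-0.20 to 0.25).

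Other genes of the pathway were set beside the list: a selection of 42 further lysosome-related genes of the same table that the pattern misses, 41 of them tested. The selection is not complete. It was made by gene name with earlier results of these data known, among genes called for AI-MI vs. PI, so its split is no test. Of the 41 genes, 37 were higher in PI and 4 in AI-MI, beside 1921 and 1613 of the 3534 tested genes of the table. Their median difference was 1.09, while that of the table, 0.63, mainly reflects its split of directions. None passed for AI vs. MI, and 3 of the 41 had an unadjusted p under 0.05, against 12.7% of all probes. Among 19 enzymes and activators, 17 were higher in PI, led by dipeptidyl peptidase 2 (2.66), hyaluronidase-1 (2.47) and the GM2 activator (2.19), which hands GM2 to beta-hexosaminidase. A second, dimmer probe named dipeptidyl-peptidase 2 differed by 1.53 with overlapping groups. Heparan-alpha-glucosaminide N-acetyltransferase (-0.62) and its like-named copy (-0.99) were lower in PI. The 4 genes of mannose-6-phosphate sorting, both receptors and both parts of the phosphotransferase that makes the tag, were higher in PI by 0.77 to 1.23. Among 6 membrane transporters and related proteins, cystinosin (2.61) and sialin (2.33), which let cystine and sialic acid out of the lysosome, had the largest differences and the cation-transporting ATPase 13A2 was lower in PI (-0.72). Of 12 genes of lysosomal signalling and fusion, 11 were higher in PI by 0.66 to 1.21, among them LAMTOR subunits 2 to 5 and Rab-7a, and MON1 homolog A was lower (-0.77).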

How the data were processed

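The authors extracted 1-colour (Cy3) Agilent arrays with Feature Extraction 11.5.1.1. The deposited processed signal is an intensity, background-subtracted and not scaled between arrays, and the raw median signals are intensity values as well. The authors' value table is deposited on the log2 scale, centred on the median of each probe. Here the processed signal was averaged per probe without spots marked uneven or outlying (1 to 47 per array), put on the log2 scale and set to 0 at the 75th percentile of each array. The sources used here do not say whether segments came from the same fish, and p-values measure the spread between arrays. Differences were fitted with limma 3.58.1 in R 4.3.3 (two-sided, Benjamini-Hochberg over 12894 probes, called at 0.05), after a test on simulated data, and tabulated in pandas 2.3.3 (Python 3.11.15, numpy 2.4.6).

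Gene names come from the study's table of called genes, read from a PDF. Its columns of fold changes hold the authors' own comparisons and were not used. The genes, role groups and lists were chosen with earlier results of these data known. The genes described in full are those with the 3 largest differences of each role group, all pump subunits, all genes higher in AI-MI, the 5 of lowest p between AI and MI, and those with the smallest differences. Alternatives were quantile normalization, normexp on median signals (mean signals had been planned and are not in the files) (offset 50), all probes without the background filter, the table of the authors, blocks for slide or replicate number, fits within each of 3 slides, a joint fit with PI, an eBayes prior with a trend, the t-test of the methods, and each array left out. Array deviations from segment means correlated at 0.189 to 0.590 between equal replicate numbers of AI and PI, all of them over 0.1, but at 0.0059 to 0.449 for AI and MI (median 0.326) and 0.0028 to 0.553 for MI and PI (median 0.435), with 6 of 7 pairs over 0.1 in each. Medians between unequal numbers were -0.06, -0.05 and -0.04 for AI and MI, AI and PI, and MI and PI. As 1 pair of AI and MI stood under 0.1, the main fit had no block. Its standard errors and p-values treat arrays as independent and so leave out these correlations between equal replicate numbers. Most equal replicate numbers shared a slide, but AI and PI replicate 3 lay on different slides, as did AI and PI replicate 6. All 8 AI arrays, these included, correlated best with the PI array of their number. Whether equal numbers mark the same fish is not stated in the sources used here and was not tested.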

Additional observations from a re-analysis of the deposited data

Results flagged for a closer look

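Single arrays stood apart from the rest of their segment in 11 of 191 groups of arrays checked with Dixon's test, where chance alone gives about 1 in 20. Log2 signals are given. Among these 11, alpha-mannosidase 2C1 had the widest gap: AI replicate 3 was at -3.94 and the next AI array at -2.37. The untested, dim beta-N-acetylhexosaminidase is not among them, though AI replicate 3 was at -4.02 and the next AI array at -7.01. AI replicate 3 was also the highest AI array for probable beta-galactosidase B, at -4.8 against -5.64. AI replicate 2 was high for lysosomal protein NCU-G1, at 0.52 against -0.32, and for hexosaminidase D, at -1.01 against -1.64. Pro-cathepsin H was low in AI replicate 6, at 3.72 against 4.27, and lysosome membrane protein 2 was high in AI replicate 1, at -1.92 against -2.24. In MI, V-type proton ATPase subunit C 1-A was high in replicate 5, at 0.93 against 0.75, and sulfatase-modifying factor 1 in replicate 3, at 1.82 against 1.54. In PI, beta-hexosaminidase subunit alpha-like was high in replicate 6, at -1.08 against -1.5, beta-glucuronidase was low in replicate 7, at 2.94 against 3.25, and subunit 4 of the complex for lysosome-related organelle biogenesis was low in replicate 4, at -0.24 against 0.16.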

How the results depend on the processing

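Between AI and MI, 0 genes of the list were called under 27 of 28 alternatives, each array left out included. The exception, chosen after values had been seen, left out AI replicate 2 and MI replicate 7 together: 3 genes were called, N-acetylglucosamine-6-sulfatase (MI minus AI 0.64, limma, adjusted p = 0.034), arylsulfatase A (-1.73, adjusted p = 0.0038) and NCU-G1 (0.44, adjusted p = 0.037), beside 1048 probes in all. For arylsulfatase A these arrays were the AI array nearest to MI and the MI array nearest to AI, so that this count is no test. Under the single alternatives the lowest adjusted p of a gene was 0.054 (without AI replicate 2) to 0.97 (within slide 1). The joint fit with PI called 49 probes and no gene of the list, with a lowest adjusted p of 0.11. The replicate block gave 0 genes (9 with an unadjusted p under 0.05) and a median of 1.14 for AI-MI vs. PI. Its lowest adjusted p of a gene for AI vs. MI was 0.12 (limma), against 0.24 in the main fit. Over all probes the replicate block called 0 for AI vs. MI, as did the main fit. How many probes it called for AI-MI vs. PI was not counted. In the correlations of arrays, 4 of 7 AI arrays were closest to the MI array of their number, 8 of 8 AI arrays to their PI array and 5 of 7 MI arrays to theirs.

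For AI-MI vs. PI, 51 tested genes were higher in PI under all 32 alternatives, a direction that the choice of genes fixes in part. The median difference went from 1.13 to 0.94 with normexp, which moved the median of all probes to -0.13 and left 15 genes over 1.5 times away from their value. By its construction the offset of 50 shrinks the differences of dim probes. Leaving out single arrays gave medians of 1.05 to 1.18, and -0.067 to 0.0081 for AI vs. MI. Of 1952 values of single genes, 1919 stayed within 1 SD of the replicates, 33 moved further and 0 changed direction. Signals near background, 4.06 to 9.59 intensity units, limit cathepsin L-like, arylsulfatase G, Niemann-Pick C1 protein, probable beta-galactosidase B, Sulf-1, sialidase-3-like and beta-N-acetylhexosaminidase.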
